A study of Homo sapiens with 9 samples.

Results

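The transcripts of YAP1, of WWTR1, which encodes TAZ, of the transcription factor TEAD1 and of 6 genes that belong to the Hippo pathway or are its targets (CCN1, CCN2, ANKRD1, AMOTL2, LATS2 and AJUBA) were followed across U87, GSCs and Diff cells. The genes were taken by symbol, and all 9 were found among the 60606 genes of the table. Each line was sequenced in 3 libraries, which gives 9 in total. U87, an established line from a human glioblastoma, is named wild-type in the labels and was grown in DMEM with fetal bovine serum. GSCs are glioblastoma stem cells derived from U87, kept as spheres in serum-free medium with B27, EGF and bFGF. They were irradiated repeatedly to select radioresistant cells. Diff cells were obtained from these GSCs with fetal bovine serum and expanded from selected clonal communities. GSCs and Diff cells therefore shared the irradiation, Diff cells and U87 shared the serum, and unirradiated GSCs were not analysed here. Irradiation, medium, growth as spheres and clonal selection thus cannot be told apart. The labels do not say that the 3 libraries of a line came from separate cultures, and p-values then measure the spread between these libraries, which may be technical.

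The Hippo pathway restrains growth through a kinase cascade in which STK3 and STK4, with SAV1, activate LATS1 and LATS2, and these phosphorylate YAP and TAZ so that both are held in the cytoplasm or degraded. When the cascade is off, YAP and TAZ enter the nucleus and, having no DNA-binding domain of their own, act on genes through TEAD1 to TEAD4. CCN1, CCN2 and ANKRD1 are the targets most often read for this activity, while AMOTL2, LATS2 and AJUBA act on the pathway, and AMOTL2 and LATS2 are also among its targets. In glioblastoma, YAP and TAZ are known for their part in mesenchymal cell states. The activity of YAP and TAZ is set largely by their phosphorylation and location, which RNA does not measure.

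Values are TPM, the transcripts of a gene per 1000000 transcripts with gene length divided out, so that levels of different genes can be compared. Differences are on the log2(TPM + 1) scale and come from limma over the 22909 genes with a mean TPM over 1. A gene passed the test at a Benjamini-Hochberg adjusted p under 0.05 over all these genes, and it was called when its difference also exceeded 1. Of the 9 genes, 8 were tested. ANKRD1 lay under the filter, and its values are given without a fit.

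The libraries of a line resembled each other, with Pearson's r of the log2 values between 0.956 and 0.971 within lines and between 0.846 and 0.922 across lines. Mitochondrial transcripts held 25.9% to 31.8% of TPM and the noncoding RNA RN7SL1 5.73% to 9.79%. Of the stem cell markers, PROM1 reached 0.379 to 0.596 TPM in GSCs and SOX2 0.809 to 0.994 TPM, both above the other lines but low. FABP7 rose against U87 by 1.77 in GSCs and by 1.16 in Diff cells, and NES was highest in U87, with 31.1 to 35.5 TPM. Of the other markers, OLIG2 lay between 4.70 and 10.6 TPM, GFAP between 0.660 and 2.57 TPM and TUBB3 between 3.14 and 5.82 TPM over the 9 libraries. GFAP was highest in U87, at 2.00 to 2.57 TPM, and fell by 0.86 in GSCs and 0.78 in Diff cells. OLIG2 fell by 0.61 from GSCs to Diff cells and did not pass against U87, and TUBB3 passed in no comparison. S100B stayed at or below 0.140 TPM in U87 and 0.402 TPM in GSCs and reached 0.257 to 1.059 TPM in Diff cells, DCX at or below 0.0228 TPM and the leukocyte marker PTPRC at or below 0.137 TPM. The endothelial marker PECAM1 was detected at 1.88 to 3.75 TPM in U87, 5.27 to 6.92 TPM in GSCs and 2.10 to 3.54 TPM in Diff cells; it rose by 0.97 in GSCs against U87 (adjusted p = 0.0056, limma) and fell by 0.90 from GSCs to Diff cells, and its part in the differences of the 9 genes was not tested. GSCs replicate 3 held CCN1 at 0.534 and AMOTL2 at 0.694 of the mean of the other GSCs libraries, and values without it are given beside the results that move.

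The promoters of CCN2, ANKRD1 and AJUBA are shown because the first of them carried the densest TEAD letters among the 7 of the 9 genes whose promoters were searched, the second held such letters in a gene with low TPM, and the third had the largest differences of all and none of these letters. The letters searched were GGAATG and, for the other strand, CATTCC. They occurred in 14% of 27305 RefSeq promoters of 250 bases before and 50 bases after the start, and 3 or more matches occurred in 0.146%. Each sequence runs 5′ to 3′ along the gene, on the minus strand of GRCh38.p14, over the 250 bases before the start, with GGAATG in capitals.
CCN2, chr6:131951373-131951622: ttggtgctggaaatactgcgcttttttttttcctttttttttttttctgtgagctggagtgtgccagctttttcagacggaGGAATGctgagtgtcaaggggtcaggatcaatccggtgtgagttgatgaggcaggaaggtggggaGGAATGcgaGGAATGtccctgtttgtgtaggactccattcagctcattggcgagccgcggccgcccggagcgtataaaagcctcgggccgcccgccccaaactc
ANKRD1, chr10:90921088-90921337: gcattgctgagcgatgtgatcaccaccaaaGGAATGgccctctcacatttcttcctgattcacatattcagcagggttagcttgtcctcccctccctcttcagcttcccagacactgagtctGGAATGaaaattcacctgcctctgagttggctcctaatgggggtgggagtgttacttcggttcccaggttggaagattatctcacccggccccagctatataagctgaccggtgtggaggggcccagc
AJUBA, chr14:22982552-22982801: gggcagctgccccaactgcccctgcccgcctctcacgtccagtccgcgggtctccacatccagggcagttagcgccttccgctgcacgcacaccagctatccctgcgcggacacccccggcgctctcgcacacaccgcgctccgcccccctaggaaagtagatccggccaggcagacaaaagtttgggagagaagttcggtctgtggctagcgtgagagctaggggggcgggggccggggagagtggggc
Counted back from the start, the matches of CCN2 began at -169, -104 and -95 and those of ANKRD1 at -220 and -128. YAP1 had 1 match, at -162, and LATS2 1 match, at 10 after the start. WWTR1, AMOTL2 and AJUBA had no match in the window searched. For WWTR1 that window, chr3:149703224-149703523, lay inside the gene, which begins at 149736714 on the minus strand. The bases before that position were not searched, so nothing is said about TEAD letters there. Promoters of TEAD1 and CCN1 were not used here. The AP-1 letters TGANTCA, found in 7.76% of promoters, occurred once among the 7 promoters, in ANKRD1 at -195, and the CArG box of SRF, found in 1.29%, in none. A match of letters is a description of the sequence, and binding was not measured.

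In GSCs against U87, YAP1 and LATS2 rose and WWTR1, TEAD1, CCN2, AMOTL2 and AJUBA fell, and CCN1 did not pass the test. Of the 8 tested genes, 7 passed, and 48.6% of all tested genes did. AJUBA was the 1 gene called, as lower, against 17.1% of all genes (9.52% higher and 7.53% lower). The libraries of both lines did not overlap for 7 of the 8, against 55.8% of all genes. The median difference of the 8 was -0.38, and that of all genes 0.02. Such values come from bulk RNA, in which fewer cells of a type and less RNA per cell cannot be told apart.

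When Diff cells were set against U87, YAP1 and AMOTL2 rose, WWTR1, TEAD1, CCN2 and AJUBA fell, and CCN1 and LATS2 did not pass the test. Of the 8 genes, 6 passed, and 39.4% of all tested genes did. Again AJUBA was the 1 gene called, as lower, and 12.3% of all genes were called (5.92% higher and 6.36% lower). Libraries did not overlap for 7 of the 8, against 55.2%. The medians were -0.08 for the 8 genes and -0.04 for all genes. Both comparisons use the same U87 libraries, so the falls of WWTR1, TEAD1, CCN2 and AJUBA in both are not independent of each other.

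From GSCs to Diff cells, AMOTL2 and AJUBA rose, YAP1 fell, and the other 5 tested genes did not pass. This is 3 of 8, against 34.8% of all genes. None was called by limma, while 8.01% of all genes were (2.66% higher and 5.36% lower) and 3 of the 8 had an unadjusted p under 0.05. AMOTL2, at 0.95, lay just under the fold limit and exceeded it under 3 other scalings, at 1.003 to 1.029, as AJUBA did with a pseudocount of 0.1, at 1.012. Libraries did not overlap for 4 of the 8, against 46.7%. The plot of the 8 differences shows AJUBA alone beyond the fold limit against U87.

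**Figure D1:**
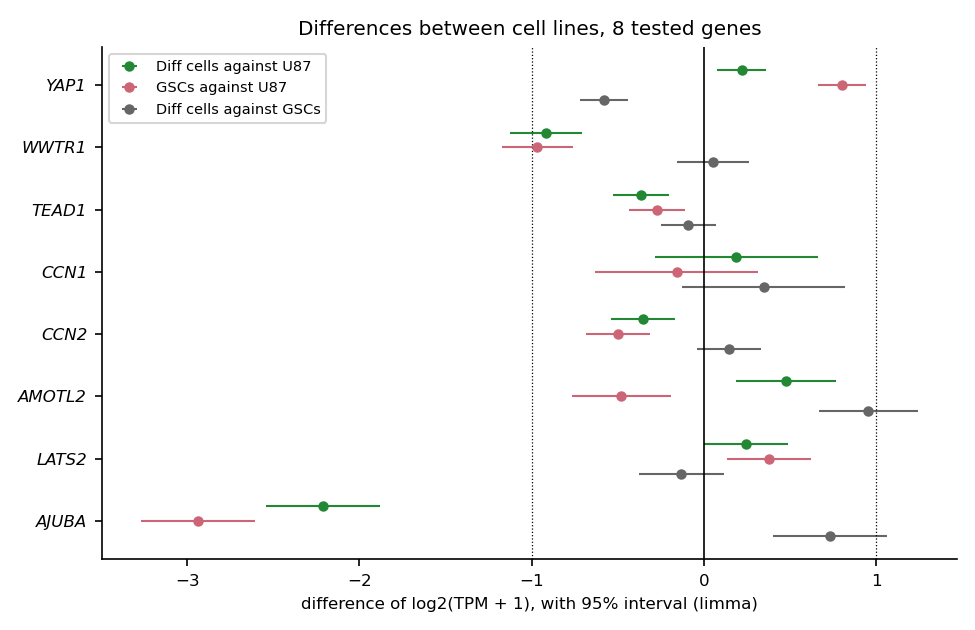
Differences of log2(TPM + 1) between cell lines for the 8 tested genes, each point with its 95% interval from limma; colours mark the comparison and dotted lines the fold limit of 1. AJUBA lies at -2.94 in GSCs and -2.21 in Diff cells against U87, WWTR1 near -1 in both, and YAP1 at 0.80 in GSCs against U87.

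YAP1 (GENCODE 29, chr11:102110461-102233423, plus strand) and WWTR1 (chr3:149517235-149736714, minus strand) encode the coactivators YAP and TAZ. In U87, YAP1 stood at 51.6, 47.0 and 50.1 TPM in replicates 1 to 3, in GSCs at 83.9, 83.8 and 93.6 TPM, and in Diff cells at 59.3, 58.3 and 55.8 TPM. The 3 lines did not overlap, with GSCs highest and U87 lowest. In GSCs the mean of 87.1 ± 5.60 TPM (SD, n = 3) was 1.76 times the 49.6 ± 2.36 TPM of U87, a difference of 0.80 ± 0.0619 (SE; adjusted p = 1.03e-05, limma). The mean of Diff cells, 57.8 ± 1.80 TPM, differed from U87 by 0.22 (adjusted p = 0.0216, limma) and from GSCs by -0.58 (adjusted p = 0.000181, limma). The small difference between Diff cells and U87 did not pass without U87 replicate 2, Diff replicate 1 or Diff replicate 2, with adjusted p from limma up to 0.0765, nor without the trend (0.0585).

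WWTR1 stood at 54.4, 47.5 and 58.8 TPM in U87, at 26.5, 24.8 and 29.3 TPM in GSCs, and at 28.5, 26.4 and 28.5 TPM in Diff cells. Every U87 library lay above every library of the irradiated lines, whose values overlapped. The fall was to 0.502 of U87 in GSCs (-0.97 ± 0.0913; adjusted p = 3.50e-05, limma) and to 0.519 in Diff cells (-0.92 ± 0.0913; adjusted p = 6.83e-05, limma). Both values lie close to the fold limit, and WWTR1 was called in GSCs against U87 without GSCs replicate 3, at -1.03, or without U87 replicate 2, at -1.05. Between Diff cells and GSCs it differed by 0.05, with a 95% interval from -0.158 to 0.259 and an adjusted p of 0.710 (limma).

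The balance of both coactivator transcripts differed between lines. YAP1 TPM over WWTR1 TPM was 0.852 to 0.989 in U87, 3.17 to 3.38 in GSCs and 1.96 to 2.21 in Diff cells, with no overlap between any pair of lines. YAP1 made up 48.1% ± 1.92 of their summed TPM in U87, 76.4% ± 0.608 in GSCs and 67.5% ± 1.35 in Diff cells (SD, n = 3). Their sum varied less, with 103 ± 7.64 TPM in U87, 114 ± 7.76 TPM in GSCs and 85.6 ± 1.95 TPM in Diff cells. The plot of YAP1 against WWTR1 separates the lines along both axes except for WWTR1 between GSCs and Diff cells.

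**Figure D2:**
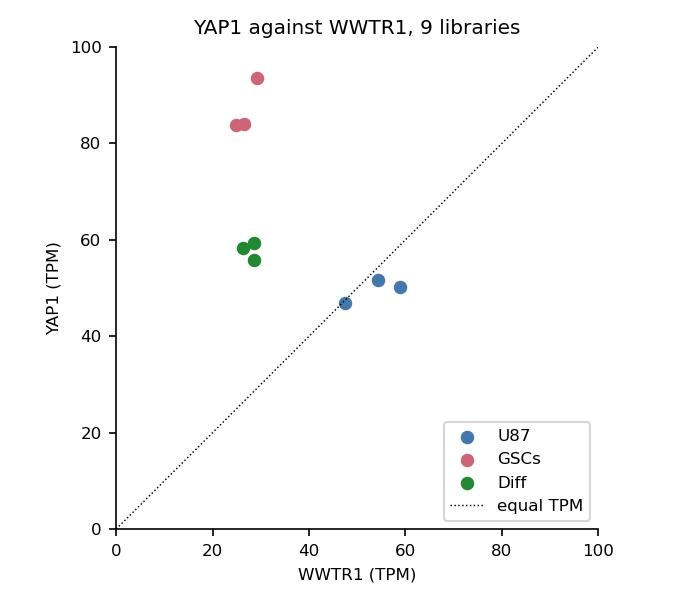
TPM of YAP1 against TPM of WWTR1, 1 point per library, coloured by cell line; the dotted line marks equal TPM. U87 libraries lie at or just below the line (ratios 0.852 to 0.989), Diff libraries above it (1.96 to 2.21) and GSCs libraries farthest above it (3.17 to 3.38).

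The TEAD factors bind DNA for YAP and TAZ. TEAD1 (chr11:12674591-12944483, plus strand) was the most abundant of the 9 genes in 8 of the 9 libraries and stood above 94.1% of tested genes or more in each. Its levels were 107, 104 and 110 TPM in U87, 83.5, 84.3 and 97.5 TPM in GSCs, and 84.4, 77.8 and 86.0 TPM in Diff cells. U87 lay above both other lines, which overlapped. The difference from U87 was -0.27 in GSCs (adjusted p = 0.0111, limma) and -0.37 in Diff cells (adjusted p = 0.00319, limma), and that between Diff cells and GSCs was -0.09, with a 95% interval from -0.253 to 0.0675. Among the paralogs, TEAD3 fell against U87 in both lines (-0.38 in GSCs and -0.47 in Diff cells), whereas TEAD2 and TEAD4 rose in GSCs by 0.55 and 0.35. Summed over TEAD1 to TEAD4, the level was 177 ± 3.82 TPM in U87, 169 ± 4.45 TPM in GSCs and 150 ± 6.28 TPM in Diff cells, and TEAD1 held 60.4%, 52.2% and 55.1% of it. The VGLL proteins compete with YAP and TAZ for TEADs: VGLL3 and VGLL4 fell in GSCs against U87 by 0.34 and 0.32, and VGLL1 and VGLL2 stayed at or below 0.245 TPM. Of the 5 tested TEAD and VGLL genes besides TEAD1, none was called by limma in any of the 3 comparisons. In GSCs against U87 all 5 passed (2 higher, 3 lower), in Diff cells against U87 TEAD3 passed as lower, and in Diff cells against GSCs 2 passed as higher and 1 as lower. Without GSCs replicate 3, 2 passed as lower in the last comparison. Of all genes, 48.6% passed and 17.1% were called in the first of these comparisons. The shares were 39.4% and 12.3% in the second, and 34.8% and 8.01% in the third. With 5 genes, the absence of calls is therefore not shown to differ from all genes.

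LATS2 (chr13:20973032-21061547, minus strand) encodes one of the kinases that phosphorylate YAP and TAZ and is itself a YAP/TAZ target. It stood at 13.1, 10.5 and 11.6 TPM in U87, at 14.4, 16.9 and 15.1 TPM in GSCs, and at 15.3, 14.2 and 12.6 TPM in Diff cells. GSCs lay above U87 without overlap, and Diff cells overlapped both. The rise in GSCs was 0.38 ± 0.108 (adjusted p = 0.0182, limma) and did not pass without U87 replicate 2, U87 replicate 3 or GSCs replicate 2, with adjusted p from limma of 0.0504 to 0.0643. In Diff cells the difference from U87 was 0.24, with a 95% interval from -0.00156 to 0.489 (adjusted p = 0.108, limma). The paralog LATS1 fell in Diff cells against U87 by 0.57 (adjusted p = 0.0017, limma) and had a difference of -0.20 in GSCs (adjusted p = 0.129, limma).

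AJUBA (chr14:22971174-22982642, minus strand) encodes a LIM protein that binds LATS kinases and limits their action on YAP. It had the largest differences among the 9 genes. The TPM in U87 were 19.1, 16.1 and 21.5, in GSCs 1.48, 1.31 and 1.98, and in Diff cells 2.92, 3.34 and 3.56. No pair of lines overlapped, with U87 highest and GSCs lowest. The fall against U87 was -2.94 ± 0.145 in GSCs (adjusted p = 7.41e-07, limma) and -2.21 ± 0.145 in Diff cells (adjusted p = 5.72e-06, limma). In TPM the mean fell to 0.0842 and 0.173 of that in U87, which differs from the log2 values because these carry an added 1. From GSCs to Diff cells AJUBA rose by 0.73 (adjusted p = 0.00488, limma), from 1.59 ± 0.348 to 3.27 ± 0.325 TPM (SD, n = 3). Expressed as a rank, AJUBA lay above 69.8% to 76.2% of tested genes in U87 libraries and above 10.7% to 17.4% in GSCs libraries.

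AMOTL2 (chr3:134355874-134375479, minus strand) encodes an angiomotin that binds YAP at cell junctions and is also a YAP/TAZ target. Its levels were 31.2, 29.4 and 28.5 TPM in U87, 23.1, 24.3 and 16.4 TPM in GSCs, and 41.4, 41.3 and 42.1 TPM in Diff cells. The lines did not overlap, and Diff cells were highest and GSCs lowest. AMOTL2 was the 1 gene of the 9 that passed in opposite directions against U87: it fell by 0.48 in GSCs (adjusted p = 0.0125, limma) and rose by 0.47 in Diff cells (adjusted p = 0.0165, limma). Between Diff cells and GSCs it rose by 0.95 ± 0.126 (adjusted p = 0.000581, limma), or to 1.95 times the level. Without GSCs replicate 3 the fall in GSCs was 0.31 and the rise from GSCs to Diff cells 0.79, and both passed; without U87 replicate 3 the rise in Diff cells against U87 did not (adjusted p = 0.0538, limma).

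**Figure D3:**
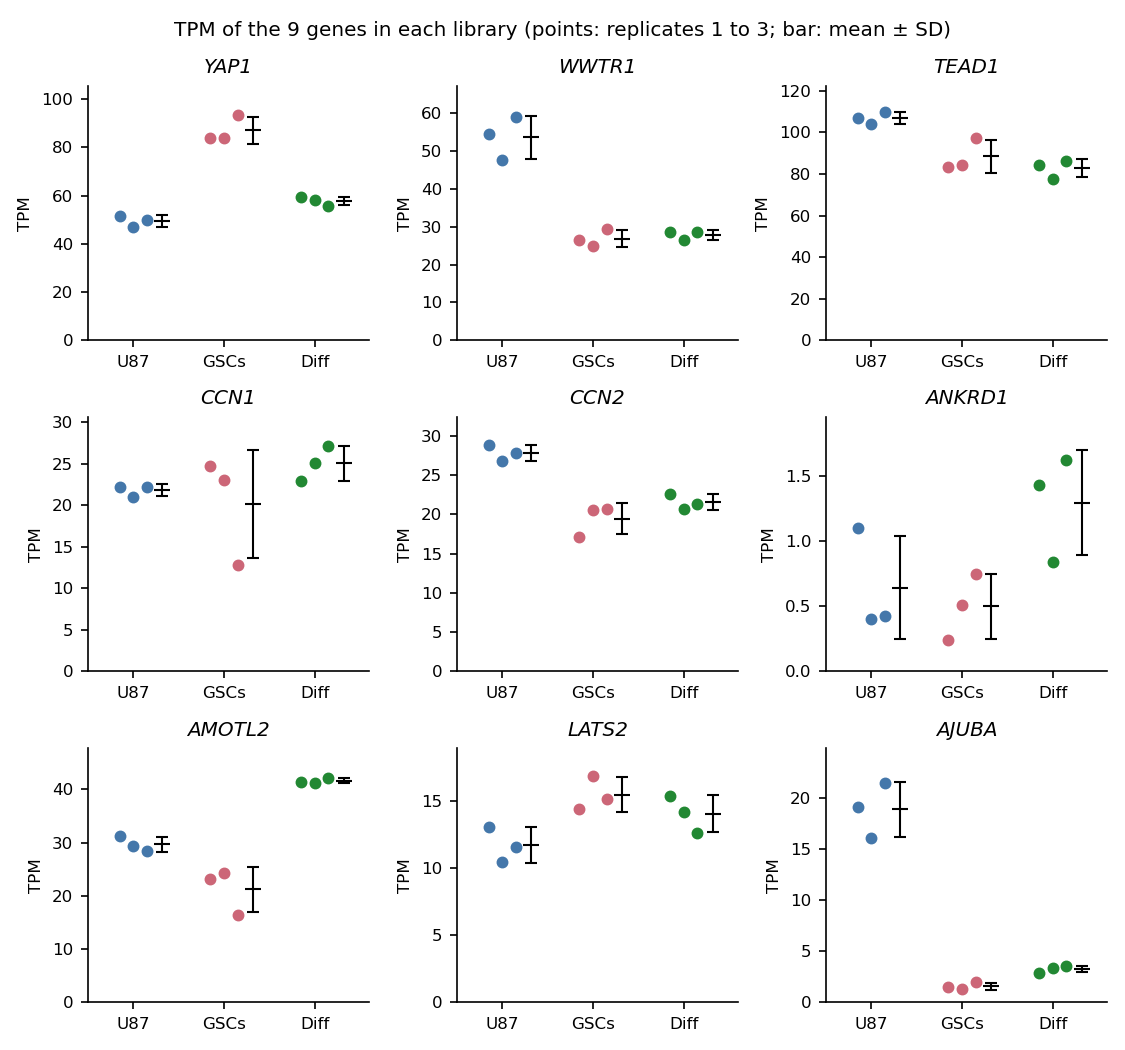
TPM of the 9 genes in each library, 1 panel per gene with its own axis from 0; points are replicates 1 to 3 from left to right and the bar is the mean ± SD of 3 libraries. AJUBA falls from 16.1 TPM or more in U87 to 3.56 TPM or less in the other lines, YAP1 is highest in GSCs and AMOTL2 in Diff cells, and 1 GSCs library lies low for CCN1.

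Of 18 listed kinases and adaptors of the core cascade besides LATS2, 17 were tested, and 8 passed in each comparison, beside 48.6%, 39.4% and 34.8% of all genes in GSCs against U87, Diff cells against U87 and Diff cells against GSCs. Against U87, 4 passed as higher and 4 as lower in GSCs, and 2 as higher and 6 as lower in Diff cells, with medians of -0.08 and -0.15; without GSCs replicate 3, 8 passed as lower in GSCs. Against U87, 1 of the 17 was called in GSCs and 1 in Diff cells, beside 17.1% and 12.3% of all genes. These were MAP4K4, a kinase that can act on LATS1 and LATS2 in parallel to STK3 and STK4, in GSCs (-1.39), and WWC3, a relative of the adaptor KIBRA, in Diff cells (-1.25). SAV1, the scaffold of STK3 and STK4, rose in GSCs by 0.86 and in Diff cells by 0.41, and NF2, encoding merlin, rose in Diff cells by 0.36. MOB1A, whose product is a LATS cofactor, fell by 0.98 and 0.93 in GSCs and Diff cells. WWC1, which encodes KIBRA, was under the filter, with 2.00 to 2.42 TPM in U87 and at most 0.116 TPM in the other lines. Between Diff cells and GSCs, 3 of the 17 passed as higher and 5 as lower, and none was called, against 8.01% of all genes.

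Of 15 listed upstream genes, 12 were tested. FAT1, an atypical cadherin that promotes Hippo signaling, had by far the largest fall among them: it stood at 47.3 to 49.1 TPM in U87, 4.14 to 4.67 TPM in GSCs and 0.0592 to 0.180 TPM in Diff cells. Against U87 the difference was -3.18 in GSCs and -5.45 in Diff cells. LIMD1, a LIM protein related to AJUBA, fell in GSCs by 1.25 and in Diff cells by 1.28, and AMOTL1, a relative of AMOTL2, rose by 1.33 and 1.03. FAT4 was called as lower in Diff cells (-1.05). Of the 12, 1 was called as higher and 2 as lower in GSCs against U87, beside 9.52% and 7.53% of all genes. Diff cells against U87 gave 1 and 3, beside 5.92% and 6.36%. In Diff cells against GSCs 1 was called, as lower, beside 5.36%. In all, 2 passed as higher and 6 as lower in GSCs relative to U87, 2 and 4 in Diff cells against U87, and 2 and 3 in Diff cells against GSCs; without GSCs replicate 3, 1 passed as higher in the last comparison. Among all genes, 25.3% passed as higher and 23.3% as lower in the first of these comparisons, 18.9% and 20.5% in the second, and 15% and 19.8% in the third.

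CCN2 (chr6:131948176-131951373, minus strand) and CCN1 (chr1:85580761-85583962, plus strand) encode secreted matricellular proteins and are direct YAP/TAZ targets. CCN2 stood at 28.8, 26.8 and 27.8 TPM in U87, 17.1, 20.6 and 20.6 TPM in GSCs, and 22.6, 20.7 and 21.3 TPM in Diff cells. U87 lay above both other lines, and each Diff library lay slightly above each GSCs library. The fall was 0.50 in GSCs (adjusted p = 0.00102, limma) and 0.36 in Diff cells (adjusted p = 0.00835, limma), and between Diff cells and GSCs the difference was 0.14, with a 95% interval from -0.0433 to 0.331. In its promoter, printed above, CCN2 had 3 TEAD matches. Against U87 its transcript moved in the direction of WWTR1 and TEAD1 and opposite to YAP1. Whether these matches or these factors bear on the level of CCN2 was not tested.

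CCN1 stood at 22.3, 21.0 and 22.2 TPM in U87, 24.8, 23.1 and 12.8 TPM in GSCs, and 22.9, 25.2 and 27.1 TPM in Diff cells. One GSCs library, replicate 3, was far below the other 8. No comparison passed the test: the difference from U87 was -0.16 in GSCs, with a 95% interval from -0.632 to 0.315, and 0.19 in Diff cells, from -0.286 to 0.662. Diff cells differed from GSCs by 0.35, from -0.128 to 0.82. Without GSCs replicate 3, the difference between GSCs and U87 turned to 0.13 (adjusted p = 0.217, limma) and that between Diff cells and GSCs shrank to 0.06. The value for Diff cells against U87 stayed at 0.19, but its SE fell from 0.208 to 0.0688 and its adjusted p from 0.518 to 0.0613 (limma), and each Diff library lay above each U87 library. CCN1 is thus not shown to be unchanged.

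ANKRD1 (chr10:90912096-90921276, minus strand), a gene of the cardiac ankyrin repeat family and another direct target, was near the lower end of detection. It stood at 1.10, 0.403 and 0.424 TPM in U87, 0.243, 0.511 and 0.744 TPM in GSCs, and 1.43, 0.839 and 1.62 TPM in Diff cells. The libraries of Diff cells lay above those of GSCs, and U87 overlapped both. With 3 libraries against 3, an exact permutation test cannot go below p = 0.1 (two-sided). The counts behind these TPM are not known, so no interval for counting error can be given.

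The other CCN genes spread further than CCN1 and CCN2. CCN3 rose against U87 by 2.77 in GSCs and 2.94 in Diff cells, CCN5 rose by 1.03 and 2.11, and CCN4 fell by 3.85 and 2.93. All 3 were called by limma in both comparisons against U87, beside 17.1% of all genes in GSCs and 12.3% in Diff cells. CCN6 stayed at or below 0.945 TPM. Between GSCs and Diff cells, CCN4 and CCN5 passed as higher, with 0.92 and 1.08, and CCN5 was called. Of all genes, 15% passed as higher in this comparison and 2.66% were called as higher.

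Beyond the 9 genes, a list of 17 conserved YAP/TAZ targets was read, of which 16 were tested. In GSCs against U87, 4 passed as higher and 11 as lower, with a median of -0.65, and 5 were called, all lower. Diff cells against U87 gave 4 higher and 10 lower, with a median of -0.54, and 6 were called, 1 higher and 5 lower. Among all genes, 25.3% passed as higher and 23.3% as lower in GSCs, and 18.9% and 20.5% in Diff cells. The shares called were 9.52% higher and 7.53% lower in GSCs, and 5.92% and 6.36% in Diff cells. The medians of all genes were 0.02 and -0.04. Between Diff cells and GSCs 7 passed as higher and 5 as lower, with a median of 0.21, and 1 was called as higher and 3 as lower. Of all genes, 15% passed as higher and 19.8% as lower here, with a median of -0.06, and 2.66% and 5.36% were called.

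IGFBP3, which encodes a binding protein of insulin-like growth factors, fell most, from 543 to 647 TPM in U87 to 37.7 to 60.1 TPM in GSCs (-3.65) and 6.08 to 6.64 TPM in Diff cells (-6.35). F3, encoding tissue factor, followed the same order, with -1.09 in GSCs and -3.69 in Diff cells. ARHGEF17 fell by 2.28 in GSCs and 0.98 in Diff cells, and PTPN14, which encodes a phosphatase that binds YAP, by 1.21 and 1.07. AXL, a receptor tyrosine kinase gene, had 410 to 435 TPM in U87 and fell by 0.80 and 0.38. Against the general direction, NUAK2, a kinase gene, rose by 0.94 and 1.23 and MYOF, encoding myoferlin, by 0.18 and 0.46. NT5E, encoding the ectoenzyme CD73, passed in opposite directions: it rose by 0.51 in GSCs and fell by 1.58 in Diff cells. Of the 17 listed genes, 12 had a RefSeq promoter, and 4 of these held TEAD letters, beside 14% of the 27305 promoters. They were NUAK2, which rose, PTPN14, which fell, TGFB2, and FOXF2, which was not tested. DOCK5 was called as lower in Diff cells (-1.21), and CRIM1 in GSCs (-1.06). In the plot of the 16 targets, IGFBP3 has the largest fall against U87 in both lines, followed by ARHGEF17 in GSCs and by F3 in Diff cells.

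**Figure D4:**
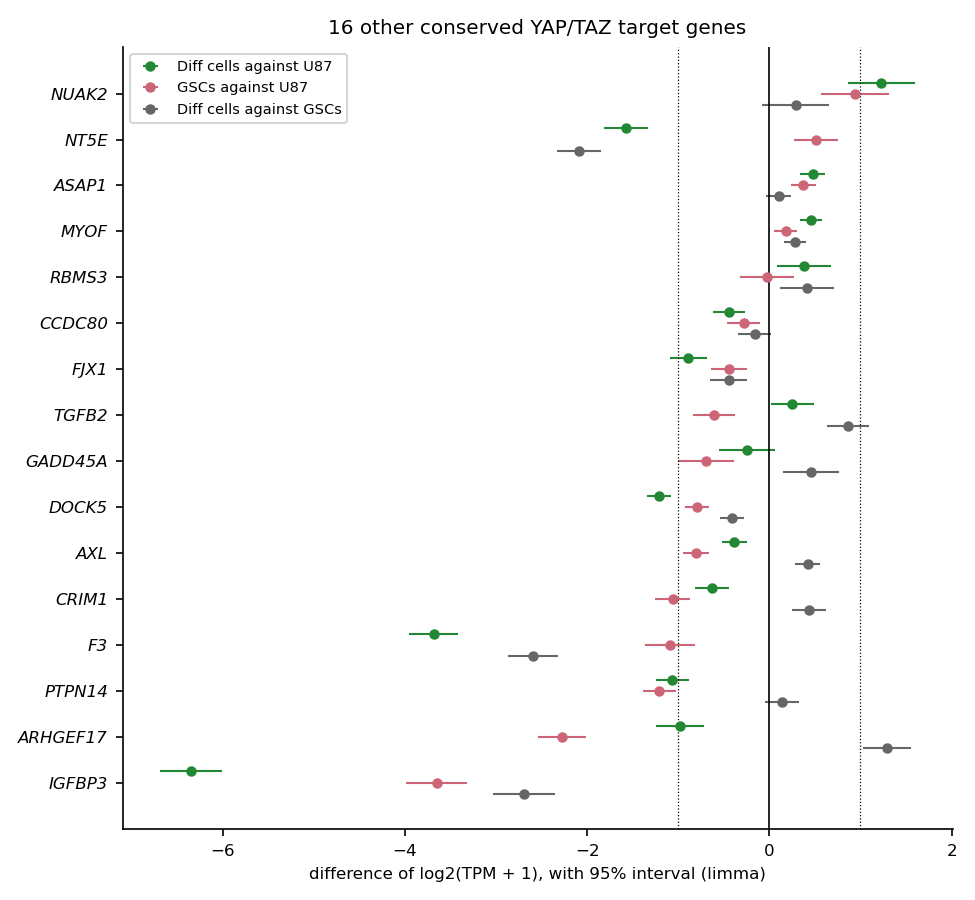
Differences of log2(TPM + 1) with 95% intervals from limma for 16 tested conserved YAP/TAZ targets outside the 9 genes, ordered by the difference between GSCs and U87; dotted lines mark the fold limit of 1. Against U87, 11 genes pass as lower in GSCs and 10 in Diff cells, with IGFBP3 at -3.65 and -6.35.

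A second list held genes described as YAP/TAZ targets in single systems. Of its 7 tested genes, 2 passed as higher and 4 as lower against U87 in GSCs and likewise in Diff cells, with a median of -0.31 in the latter; in Diff cells against GSCs, 3 passed as higher and 3 as lower. The shares of all genes are those given above for the upstream genes. EDN1, which encodes the peptide endothelin 1, had 0.496 to 0.622 TPM in U87, 177 to 219 TPM in GSCs and 33.1 to 41.0 TPM in Diff cells. MYC rose by 0.94 in GSCs and 0.50 in Diff cells. JAG1, the gene of a Notch ligand, was called as lower in both lines, with -1.575 in GSCs and -1.06 in Diff cells. CAV1, the gene of caveolin 1, fell by 1.20 and 0.55, and BIRC5, the gene of survivin, fell by 1.42 and 0.31. Against U87 both were called in GSCs only, and EDN1 was called as higher in both lines. Of the 7, 1 was called as higher and 3 as lower in GSCs, beside 9.52% and 7.53% of all genes. In Diff cells against U87 it was 1 and 1, beside 5.92% and 6.36%.

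SRF with its coactivators of the MRTF family responds to actin, and its targets overlap with those of YAP and TAZ. Of 10 tested genes of this list, 7 passed as lower and none as higher in GSCs against U87, with a median of -0.56. Of all genes, 23.3% passed as lower and 25.3% as higher there, with a median of 0.02. In Diff cells against U87, 3 passed as higher and none as lower, with a median of -0.03, and 1 passed as lower without GSCs replicate 3. Of all genes, 18.9% passed as higher and 20.5% as lower in this comparison, with a median of -0.04. From GSCs to Diff cells, 8 passed as higher and none as lower, with a median of 0.72, against 15% and 19.8% of all genes. TPM1, a tropomyosin gene, fell by 1.03 in GSCs against U87 and rose by 1.43 from GSCs to Diff cells, and MYL9, a myosin light chain gene, rose by 1.19 between these lines, as did CNN1, a calponin gene, by 1.20. AMOTL2 had the same order of lines as TPM1, with Diff cells highest and GSCs lowest.

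Position in the genome was read beside the 9 genes. Within 5 Mb of YAP1 on chromosome 11, 24 other genes were tested, and their median difference against U87 was 0.98 in GSCs and 0.71 in Diff cells, while the medians of all genes were 0.02 and -0.04. In GSCs 19 of the 24 lay above 0 and 10 were called higher, and in Diff cells 21 lay above 0 and 7 were called higher. YAP1 itself lay at the 41.7 percentile of these neighbours in GSCs and at the 20.8 percentile in Diff cells, so its rise was no larger than the median around it. The nearest neighbours differed: CFAP300, the closest, had -0.44 in GSCs (adjusted p = 0.0764, limma), CEP126 fell by 0.47 in GSCs, BIRC2, which encodes an inhibitor of apoptosis, had -0.99 in GSCs and -1.15 in Diff cells, and TMEM123 rose by 0.86 in GSCs. The part of these neighbours' shift in the value of YAP1 was not tested.

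**Figure D5:**
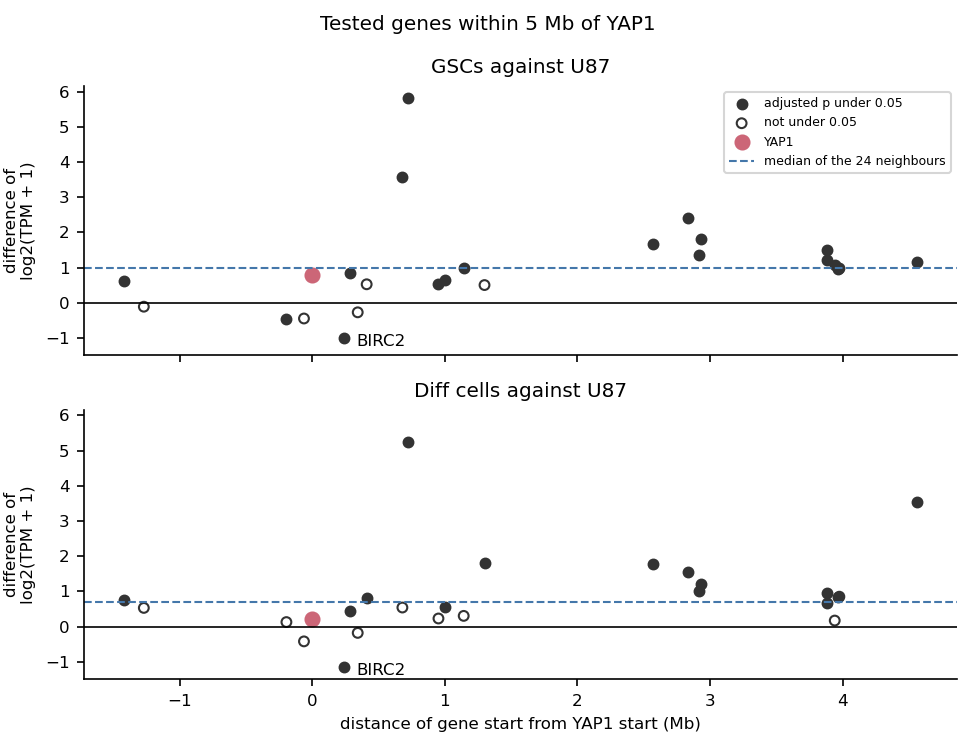
Differences of log2(TPM + 1) against U87 for YAP1 and 24 tested genes within 5 Mb, by distance of the gene start from that of YAP1 in Mb; filled points have an adjusted p under 0.05 (limma) and the dashed line is the median of the neighbours. The medians are 0.98 in GSCs (upper panel) and 0.71 in Diff cells (lower panel), and YAP1 lies below both, at 0.80 and 0.22.

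The other genes stood apart from their surroundings to different degrees. AJUBA had a lower value than each of its 111 tested neighbours within 5 Mb in GSCs against U87, where their median was 0.04. CCN2 lay at the 3.70 percentile of 54 neighbours in GSCs against U87, whose median was 0.28, so its fall ran against the local direction. WWTR1 lay at the 18.4 percentile of 38 neighbours in GSCs and the 15.8 percentile in Diff cells, with local medians of -0.11 and -0.06. AMOTL2 lay at the 97.4 percentile of 78 neighbours in Diff cells against U87 and also against GSCs. Genes on the other strand share 10% of the exonic bases of YAP1, 9.4% of WWTR1 and 8.3% of CCN2, and the strand setting of the counting is not given in the sources used here. The partner of YAP1 was listed at 0 in the 9 libraries and WWTR1-AS1 at 0.521 to 1.33 TPM. No value was read for the partner of CCN2. Other genes at the position of WWTR1 were RNU6-1098P, at 9.96 to 34.5 TPM, and WWTR1-IT1, at 1.93 to 11.4 TPM. Whether their reads enter the value of WWTR1 was not tested.

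The likeness of other genes was measured as Pearson's r of the log2 values over the 9 libraries, among 13470 genes with a mean TPM over 5. Because the libraries fall into 3 lines, such values mostly describe the order of 3 means. YAP1 was followed most closely by OSBP (0.996), EYA4 (0.994) and SC5D (0.993), and 404 genes exceeded 0.95. WWTR1 was followed by ALCAM (0.998), ANKH (0.997) and MXRA7 (0.996), and 442 genes exceeded 0.95. CCN2 had TLNRD1 (0.989) and P2RX6 (0.983) as its closest genes, with 100 above 0.95.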

How the data were processed

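RNA of 9 libraries was sequenced; per the labels, Magzol was used, ribosomal RNA was depleted and the libraries kept strand, whereas the methods give Trizol and oligo(dT) beads. The authors deposited log2(TPM + 1) for 60606 genes, and each library, transformed back, summed to 1000000. The submitters' processing notes name FastQC 0.11.9, Trimmomatic 0.39, HISAT2 2.2.1, featureCounts 2.0.5, R 4.2.0 and the build GRCh38; the annotation and strand setting are not given in the sources used here. TPM keeps no depth, so counting error is unknown.

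Genes with a mean TPM over 1 were fitted in R 4.3.3 by the lmFit and eBayes functions of limma 3.58.1, trend included and with 3 groups in 1 model, on the deposited log2 values, with Benjamini-Hochberg adjustment within each comparison. The script was tested on simulated data. Positions and overlaps came from GENCODE 29, and promoters from a table of RefSeq sequences (GRCh38.p14), in which 7 of the 9 genes were matched. Tables used pandas 2.3.3 and numpy 2.4.6, and plots matplotlib 3.10.9, under Python 3.11.15. The members and lists were chosen with earlier results of these data known. Genes named from the lists were those called plus examples chosen after their values were seen. Alternatives covered the pseudocount, filters, scalings, thresholds, the samples in the fit, the trend, a replicate block and the omission of each library. A few results on single genes are not reported here.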

Additional observations from a re-analysis of the deposited data

How the results depend on the processing

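With an adjusted p under 0.05 alone, 6, 7 and 3 of the 8 tested genes passed in Diff cells against U87, GSCs against U87 and Diff cells against GSCs, and 9024, 11129 and 7982 of all genes. With a mean TPM over 5, 1583, 2254 and 1038 of all genes were called. In Diff cells against GSCs, 1 of the 8 genes was called instead of 0: AJUBA with a pseudocount of 0.1, and AMOTL2 with median-ratio scaling, quantile normalization or TPM without RN7SL1 and mitochondrial genes. Leaving out 1 library at a time gave 1 to 2 called in GSCs against U87 (WWTR1 added without U87 replicate 2 or GSCs replicate 3) and 0 to 1 in Diff cells against GSCs (AMOTL2 without GSCs replicate 1 or 2). Signs reversed for CCN1 in GSCs against U87 without GSCs replicate 3 (0.1264, the end of a range from -0.3251 over libraries left out) and for WWTR1 in Diff cells against GSCs without GSCs replicate 2 (-0.0024, in a range up to 0.1127); neither passed the test in either setting. The cause was not tested. The replicate numbers did not pair the libraries: same-numbered libraries had correlations of deviations of -0.0416 to 0.0489. With a replicate block, 2810, 3917 and 1831 genes were called against 2812, 3908 and 1836, and no call of the 9 genes changed. The list counts without GSCs replicate 3 were added after seeing the data. Depth is unknown, so counting error cannot be given for low genes such as ANKRD1.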
